A study of Mus musculus with 8 samples.

Results

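The 591 genes described here lie on mouse chromosome 3, in the 84.2 Mb from 51685907 to 135888572 (GRCm38), a stretch that opens with Maml3 and closes with Slc39a8. A gene was a member when GENCODE M21 starts it in the interval and when at least 2 of the 8 libraries held 10 or more reads on its strand. Of 48440 genes listed, 1884 start in the interval, 607 of these met the read minimum, and 16 were left out by name (Lef1, Phgdh, Crabp2, and the Hist2, Rpl and Rps genes and pseudogenes). A fit across all genes could be made for 588 members. Gm8349, Gm4778 and Ptpn22, which had 0 to 13 reads per library, did not pass its filter on low counts and were given no fold change.

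RNA was sequenced from mouse embryonic stem (ES) cells at day 1 of differentiation in N2/B27 medium with the GSK3 inhibitor CHIR99021, in 4 genotypes with 2 libraries each. WT cells are the unedited line. Cells labelled Tbxt delE6/delE6 and Tbxt delE6/+ lack exon 6 of the mesoderm regulator Tbxt on both alleles and on 1 allele, and cells labelled Tbxt Insert ASAY (insASAY) carry a pair of inverted human Alu elements in the introns around that exon, on both alleles by the study's methods. The parent of every line was MK6, which comes from the C57BL/6J mouse strain. By the study's methods, the 2 libraries of each genotype are biological replicates, and the delE6/delE6 libraries come from different clones. Whether the other lines had more than 1 clone, and how far their replicates were grown apart, is not stated. The p-values measure the spread between libraries, and each of those other lines may stand for 1 clone. Tbxt itself is not on chromosome 3.

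The genes of a chromosome stretch of this size are mostly unrelated in function, and many are housekeeping genes that every cell uses. The interval also holds families that arose by tandem duplication and lie near each other, among them the S100 calcium-binding proteins and the mu-class glutathione S-transferases. In ES cells that leave the pluripotent state, developmental genes of the stretch, such as the receptor gene Notch2 or the transcription factor gene Foxo1, act in signalling that directs early lineages.

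The interval was chosen on these data, from the differences of delE6/+ along the chromosome. Values of the members in delE6/+ are therefore given as a description. No p is given for them, and the count of members past the thresholds of the fit is printed once beside that over all genes, as no evidence of a difference. The comparisons of delE6/delE6, insASAY and WT with each other did not enter the rule and were tested.

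The 250 bases before the RefSeq start site are printed for 4 members (GRCm38.p6, each on the strand of its gene, CG dinucleotides in capitals). They are shown because they stand for the range of the values that follow, and windows that overlap an annotated gene on the same strand were not considered. Frem2 (chr3:53657356-53657605, minus strand) had the highest difference in delE6/+ among members with a mean of at least 2 CPM (reads of a gene scaled to library size). Mex3a (chr3:88531696-88531945, plus strand) lay near the median of the members and had a mean of at least 50 CPM. Pdgfc (chr3:81036166-81036415, plus strand) had the lowest value with such a window, and Slc39a8 (chr3:135825029-135825278, plus strand) is the last member.
Frem2: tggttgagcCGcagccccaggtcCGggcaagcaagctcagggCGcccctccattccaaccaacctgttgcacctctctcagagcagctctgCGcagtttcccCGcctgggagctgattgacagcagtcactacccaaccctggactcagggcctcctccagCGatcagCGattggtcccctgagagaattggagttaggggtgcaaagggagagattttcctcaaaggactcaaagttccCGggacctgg
Mex3a: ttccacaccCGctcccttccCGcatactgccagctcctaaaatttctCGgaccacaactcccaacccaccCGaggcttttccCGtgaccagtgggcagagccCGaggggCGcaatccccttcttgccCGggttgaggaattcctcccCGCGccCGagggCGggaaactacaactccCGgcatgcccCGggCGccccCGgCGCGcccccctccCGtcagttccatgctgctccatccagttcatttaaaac
Pdgfc: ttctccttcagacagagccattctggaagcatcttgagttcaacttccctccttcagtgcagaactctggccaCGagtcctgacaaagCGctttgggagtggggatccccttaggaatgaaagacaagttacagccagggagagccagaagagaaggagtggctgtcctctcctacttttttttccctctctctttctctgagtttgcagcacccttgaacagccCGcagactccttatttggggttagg
Slc39a8: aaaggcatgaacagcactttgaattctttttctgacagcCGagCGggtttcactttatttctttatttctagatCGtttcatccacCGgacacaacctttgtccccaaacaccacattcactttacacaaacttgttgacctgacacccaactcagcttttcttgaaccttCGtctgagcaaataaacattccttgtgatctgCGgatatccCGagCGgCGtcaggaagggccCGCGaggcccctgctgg
These windows held 8 CG dinucleotides in Frem2, 19 in Mex3a, 3 in Pdgfc and 11 in Slc39a8. The table of start sites matched 404 of the 591 members, whose median was 14 CG dinucleotides in 250 bases, against 6 over all 27025 promoters of the table. TATAAA, on either strand, was in 7.67% of the members' windows and in 13.0% of all windows. CCAAT, on either strand, was in 37.1% and 34.5%. The whole table was not limited to genes with the read minimum, as the members were, so the 2 sets are unlike. Whether the differences are particular to the interval was not tested. A match describes the letters in the window, not a used site.

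Libraries held 24618587 to 28445952 reads on genes. Sequenced reads on the members made up 2.56 to 2.65% of these in the 6 libraries of WT, delE6/delE6 and insASAY, and 3.73% and 3.69% in the delE6/+ libraries. The summed level of 10 ES cell markers, among them Pou5f1, Nanog and Sox2, was 1471 to 1525 CPM in WT, 980 to 1138 CPM in delE6/delE6, 1165 to 1210 CPM in insASAY and 1163 to 1211 CPM in delE6/+. The sum hides markers that moved apart. Sox2 and Lin28a were higher in delE6/+ than in WT, and the other markers of the list were lower. Sox2, which itself lies on chromosome 3 before the interval, had 117 and 108.6 CPM in delE6/+ and 71.1 and 66.1 CPM in WT. Pou5f1 had 176 and 184 CPM in delE6/+ and 294 and 282 CPM in WT. Markers of feeder fibroblasts (8 genes) summed to 15.6 to 28.2 CPM and endoderm markers (6 genes) to 7.11 to 12.4 CPM over the 8 libraries, and each of these genes but 1 endoderm marker per genotype had a read. The part of other cells in the values below was not tested. In RNA from whole cultures, fewer cells of a type and less RNA per cell cannot be told apart.

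The members' RNA stood higher in delE6/+ than in the other 3 genotypes in every 10 Mb step of the interval, by the median of its coding members. DNA of the lines was not analysed here, so the copy number of the stretch in delE6/+ was not examined. For each library, the log2 CPM of a gene was set against the mean of the libraries of the other genotypes. The median of this difference over the 588 members was 0.45 in each of the delE6/+ libraries, and it lay between -0.15 and -0.13 in each of the other 6 libraries, whose references include delE6/+. Replicate 2 of delE6/+ had 484 of 588 members (82.3%) above 0, and replicate 1 had 494 (84.0%). Both belong to the contrast on which the interval was chosen, so neither is a separate check.

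The fitted log2 fold change of delE6/+ against the mean of the other genotypes had a median of 0.45 over the members, a fold of 1.37, with quartiles of 0.18 and 0.73. Against WT alone the median was 0.46. Over the 16201 genes tested outside chromosome 3, the median was -0.01. The ends of the chosen interval cut chromosome 3 into 3 stretches. The 151 genes tested before the interval had a median of 0.07 and the 93 after it a median of -0.62, a fold of 0.65, while in delE6/delE6 and insASAY against WT the medians of all 3 stretches lay between -0.02 and 0.03.

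**Figure D1:**
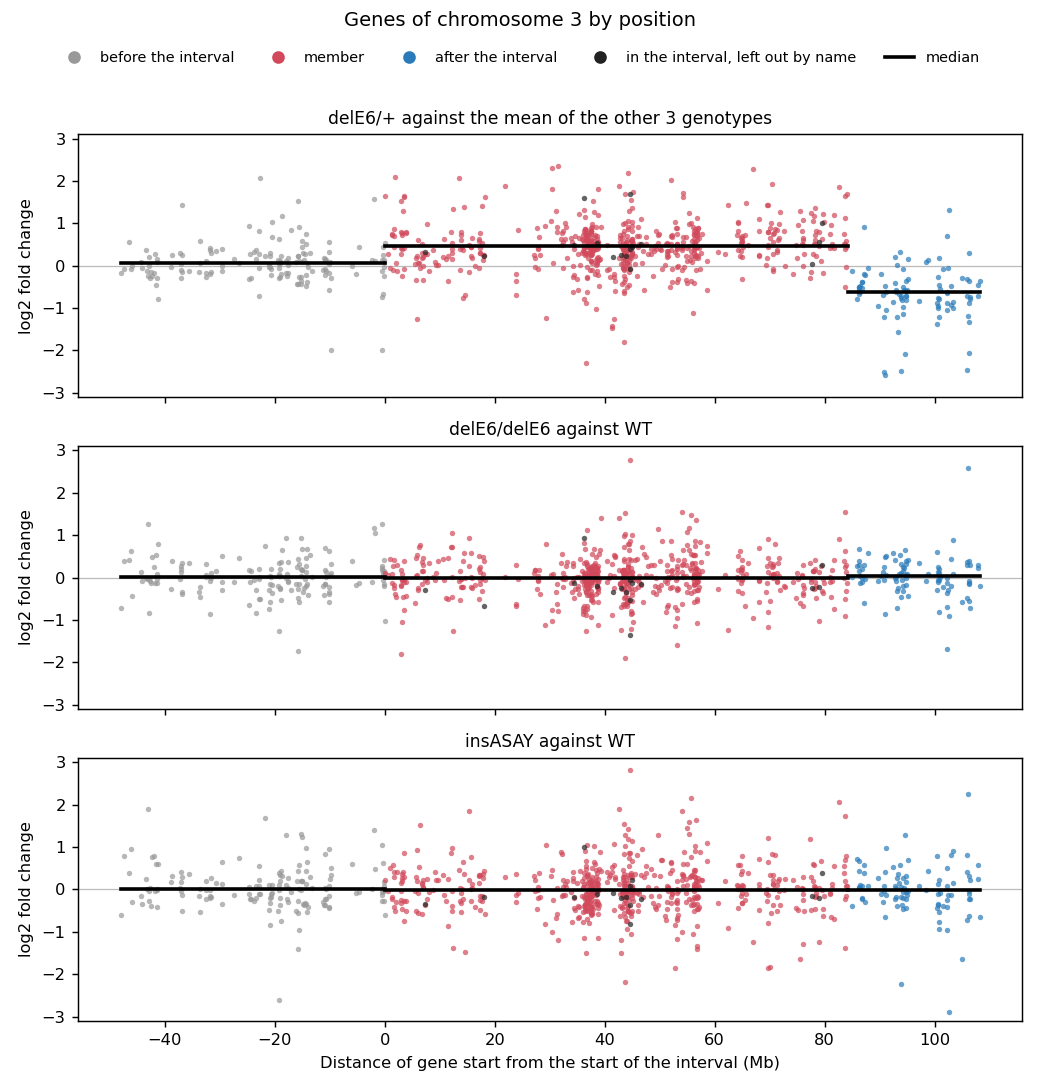
Each point is a gene of chromosome 3, placed by the distance of its start from the start of the interval (Mb), with its log2 fold change for 3 comparisons, and black lines are the medians of the 3 stretches. In the upper panel the medians are 0.07 before the interval, 0.45 over the members and -0.62 after its end. The middle and lower panels show medians near 0 throughout. The lines are cut at the ends of the chosen interval, and no step was fitted.

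In delE6/+ against the mean of the other 3 genotypes, 244 members lay past the thresholds of the fit on the higher side and 17 on the lower, where the thresholds were a log2 fold change beyond 0.5 in size and an adjusted p below 0.05. The shares of all 17049 tested genes were 9.8% higher and 9.61% lower. Against WT, 229 members lay past them on the higher side and 14 on the lower, where 6.6% of all tested genes were higher and 6.89% lower. Both delE6/+ libraries lay above all 6 others in 355 members (60.4%) and below all 6 in 21 (3.57%), beside 19.7% above and 18.1% below over all tested genes. These counts describe the contrast from which the interval was drawn and are no test of the members.

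**Figure D2:**
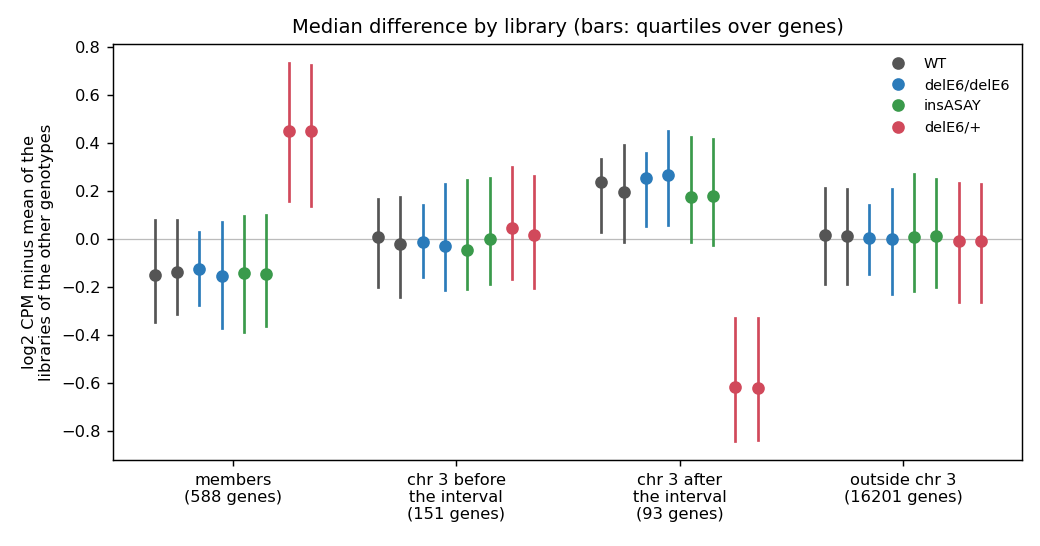
Points are the medians over genes of log2 CPM minus the mean of the libraries of the other genotypes, 1 point per library, and bars run from the lower to the upper quartile of the genes. The delE6/+ libraries stand at 0.45 over the members, at -0.62 over the genes after the interval and near 0 over the genes before it and outside chromosome 3.

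The size of the difference varied from gene to gene. In delE6/+ against the other genotypes, 148 members had log2 fold changes between 0.25 and 0.5 and 122 between 0.5 and 0.75, the most common classes. Another 73 lay between 0.75 and 1, and 65 were at 1 or above. At the other side, 78 lay between 0 and 0.25, 79 between -0.5 and 0, and 23 below -0.5.

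Gene class and level went with the spread of the values. The 459 protein-coding members tested had a median of 0.49 (quartiles 0.25 and 0.75), and in 323 of them (70.4%) both delE6/+ libraries lay above the other 6. The 72 pseudogenes had a median of 0.17, and pseudogenes outside chromosome 3 had a median of 0.08 over 1604 genes. In 16 of the 72 (22.2%) both delE6/+ libraries lay above the other 6, near the 19.7% of all tested genes. In 3 of them both lay below, where the share of all tested genes was 18.1%. A log2 fold change above 0 was found in 48 of the 72, and in 48.8% of the genes outside chromosome 3. Pseudogenes share sequence with their parent genes, so their reads may be hard to assign to 1 copy, and the part of this in the values was not tested. The 53 long noncoding or unclassified genes had a median of 0.46, which was 0.30 in replicate 1 and 0.48 in replicate 2, and their median level was 0.887 CPM. Among coding members below a mean of 2 CPM the quartiles were 1.32 apart on the log2 scale, against 0.27 apart at 50 to 100 CPM, while the medians of the 5 level classes stayed between 0.46 and 0.66.

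**Figure D3:**
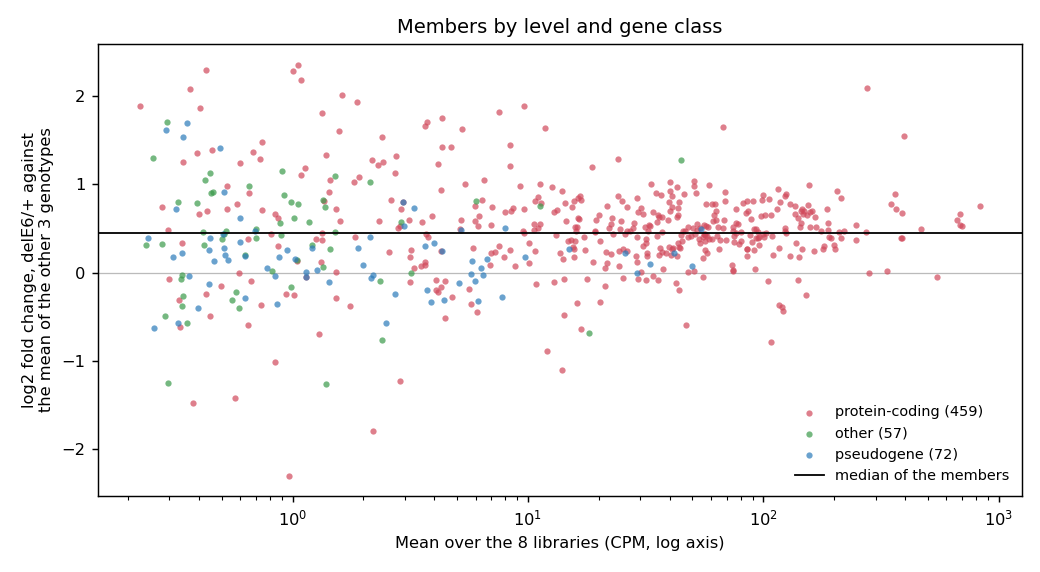
Each point is 1 of the 588 tested members, with its mean over the 8 libraries (CPM, log axis) and its log2 fold change in delE6/+ against the mean of the other 3 genotypes. Points fan out towards low levels, and coding genes above 50 CPM gather around the black line at the median of 0.45.

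By position, every 10 Mb step of the interval had a positive median over its coding members. The medians of the 9 steps, counted from the start of Maml3, ran from 0.40 to 0.66. The lowest were the step at 40 to 50 Mb, which opens with Lor (98 members, median 0.40, 77 above 0), and the step at 20 to 30 Mb, from Bche to Pdgfc (13 members, 0.40, 9 above 0). The highest was the step at 70 to 80 Mb, from F3 to Papss1 (40 members, 0.66, 36 above 0), and the last step, which ends with Slc39a8, had 17 of 17 members above 0. In delE6/delE6 against WT the medians of these steps lay between -0.05 and 0.10, and in insASAY against WT between -0.12 and 0.08.

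Of 389 coding members with a mean of at least 2 CPM, 340 had both delE6/+ libraries above the mean of the other 6 (87.4%), a share that was 41.7% over 11320 coding genes of that level outside chromosome 3. The longest unbroken run of such genes held 27 and reached from Slc25a24 to Arhgap29 (chr3:109123149-122016753), followed by a run of 24 from Arhgef26 to Bche (chr3:62338344-73708415) and a run of 23 from Gstm5 to Prpf38b (chr3:107895821-108911727).

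At the start of the interval the first member was Maml3, which encodes a mastermind-like coactivator of Notch. Its CPM were 7.43 and 6.88 in WT, 6.84 and 8.65 in delE6/delE6, 8.38 and 8.23 in insASAY, and 26.0 and 22.1 in delE6/+. Both delE6/+ libraries stood above the others, by a log2 fold change of 1.64 (SE 0.093). The next members were Foxo1, a forkhead transcription factor under insulin signalling (0.28, SE 0.050), and the pseudogene Gm10293 (-0.06, SE 0.20). Just outside, the 3 nearest genes with the read minimum were 5031434O11Rik (-0.25, SE 0.24), the pseudogene Gm38247 (0.15, SE 0.16) and Mgst2, with 5 to 16 reads per library (0.53, SE 0.39).

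At the other end the last member was Slc39a8, which encodes a zinc and manganese importer and whose promoter is printed above. Its CPM were 2.63 and 2.19 in WT, 2.14 and 2.27 in delE6/delE6, 2.84 and 2.27 in insASAY, and 9.04 and 6.49 in delE6/+. The delE6/+ libraries were again apart from the rest, at a log2 fold change of 1.70 (SE 0.15). Before it lay Nfkb1, a subunit of the transcription factor NF-kappa-B (0.43, SE 0.045), and the pseudogene Oaz2-ps (-0.04, SE 0.32).

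The first genes past the end were on the other side of 0. Ppp3ca, the catalytic subunit of calcineurin, had a log2 fold change of -0.12 (SE 0.060), the stress-response gene Ddit4l -0.78 (SE 0.083), and H2afz, the histone variant gene for H2A.Z, -0.67 (SE 0.037). Ppp3ca had 59.33 and 60.45 CPM in delE6/+, within the 51.38 to 76.84 CPM of the other 6 libraries, so the groups overlapped. H2afz had 259 and 258.5 CPM in delE6/+ and 337 to 467 CPM in the other 6 libraries.

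Members were grouped by function in 11 lists, which together hold 196 members, and in 10 of the lists the median was above 0. The lists were written with earlier results of these data known. Their medians are for delE6/+ against the mean of the other genotypes unless stated, beside 0.45 over all tested members. Their counts are of members in which both delE6/+ libraries lay above or below the other 6. Those shares were 60.4% and 3.57% over all tested members, and 19.7% and 18.1% over all tested genes, as above. Genes given only as the ends of a list's range, step or run were chosen after their values were seen.

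All 32 genes of RNA processing and translation had a log2 fold change above 0, from 0.02 (Sf3b4) to 0.82 (Clk2), with a median of 0.50, and 30 lay above the other libraries. The seryl-tRNA synthetase gene Sars had 609 and 583 CPM in WT, 649 and 624 CPM in delE6/delE6, 532 and 540.4 CPM in insASAY, and 886.5 and 897 CPM in delE6/+. No delE6/+ library overlapped the others, and the log2 fold change was 0.60 (SE 0.034). Ilf2, which encodes a double-stranded RNA-binding factor subunit, had a value of the same order (0.57, SE 0.036).

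Chromatin genes showed the same sign in all 15 members, from 0.11 (Lrif1) to 1.19 (Tet2), with a median of 0.48 and 12 above the other libraries. The growth factor-related nuclear protein gene Hdgf had 628 and 642 CPM in WT, 561 to 659 CPM in delE6/delE6 and insASAY, and 905 and 884 CPM in delE6/+ (0.54, SE 0.032). Anp32e, a chaperone that removes H2A.Z from nucleosomes (0.36, SE 0.035), and the ubiquitin ligase gene Trim33 (0.34, SE 0.041) lay below the median.

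Metabolic enzymes and transporters had a median of 0.52 over 32 members, 29 of them above 0, with 28 above the other libraries and a range from -0.18 (Ugt8a) to 2.29 (Dpyd). Slc16a1, a lactate and pyruvate transporter, had 316 and 330.5 CPM in WT, 303.5 and 316 CPM in delE6/delE6, 261 and 264 CPM in insASAY, and 537 and 569 CPM in delE6/+. The delE6/+ libraries lay well apart (0.90, SE 0.036), and the ATP synthase subunit gene Atp5f1 was at 0.68 (SE 0.035).

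The 14 genes of the proteasome and ubiquitin system had a median of 0.40 (11 above the other libraries, 1 below), with Siah2 lowest at -0.34 and Usp53 highest at 0.84. Psmb4 and Psmd4, which encode subunits of the proteasome, were at 0.46 (SE 0.034) and 0.40 (SE 0.034), and the ubiquitin-conjugating enzyme gene Ube2d3 at 0.39 (SE 0.038).

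Of 14 genes of Wnt, Notch and planar polarity signalling, 12 were above 0, with a median of 0.38 and 8 above the other libraries. Notch2, a Notch receptor, had 131 and 137 CPM in WT, 123 to 128 CPM in delE6/delE6 and insASAY, and 205 and 211 CPM in delE6/+. That is a log2 fold change of 0.70 (SE 0.036), with no overlap. Bcl9, a coactivator of beta-catenin, had 66.4 and 61.7 CPM in delE6/+ and 67.8 CPM in delE6/delE6 replicate 2, so the groups overlapped (0.23, SE 0.069). Wwtr1, which encodes the Hippo pathway effector TAZ, had 144 and 137 CPM in delE6/+, within the 133 to 149 CPM of WT and delE6/delE6, and its log2 fold change of 0.19 (SE 0.050) came with 92.6 and 101 CPM in insASAY.

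Growth factors, receptors and small GTPases (24 tested) had a median of 0.46, with 14 above the other libraries and 1 below, from -1.11 (Csf1) to 1.18 (Egf). Arhgef2, an exchange factor of small GTPases, stood at 0.54 (SE 0.045), Gnai3, an inhibitory G-protein subunit, at 0.47 (SE 0.034), and the adaptor gene Shc1 at 0.48 (SE 0.035).

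Transcription factors had the lowest median among the lists with 7 or more tested members, 0.30 over 17, with 10 above the other libraries. Arnt, a partner of hypoxia-inducible factor and of the dioxin receptor, had 250.1 and 244 CPM in delE6/+, against 161 and 159 CPM in WT, 125 and 108 CPM in delE6/delE6, and 104 and 99.7 CPM in insASAY. Its log2 fold change was 1.00 (SE 0.046), the groups of delE6/+ and the rest were apart, and WT also stood above both homozygous lines. Mef2d, a factor of muscle and neuron genes, was at 0.87 (SE 0.042) and the zinc finger gene Zfp687 at 0.40 (SE 0.052).

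Genes of the cell cycle, division and cell death (15 tested) had a median of 0.56, with 11 above the other libraries. Txnip, an inhibitor of thioredoxin, had 460 and 408 CPM in WT, 233 and 143 CPM in delE6/delE6, 203 and 213 CPM in insASAY, and 774 and 724 CPM in delE6/+ (1.54, SE 0.11). Smc4, a condensin subunit, was at 0.77 (SE 0.042). Mcl1, which encodes an inhibitor of apoptosis, had 516 and 532 CPM in delE6/+, within the range of 428 to 742.5 CPM of the other libraries (-0.05, SE 0.067).

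Among 20 genes of the cytoskeleton, adhesion and matrix the median was 0.45, with 10 above the other libraries and 2 below, and the range from -0.79 (Nes) to 2.10 (Frem2) was wide. Cnn3, a calponin of actin filaments, was at 0.49 (SE 0.033) and the tropomyosin gene Tpm3 at 0.02 (SE 0.047).

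The tandem families differed from each other. All 7 mu-class glutathione S-transferase genes, which encode detoxifying enzymes, were above 0, between 0.37 (Gstm3) and 0.75 (Gstm5), with a median of 0.55 and 5 above the other libraries. Gstm5 had 21.6 to 24.4 CPM in the other 6 libraries and 37.0 and 38.8 CPM in delE6/+. Gstm1 (0.63, SE 0.058) and Gstm2 (0.44, SE 0.066) lay nearby, and reads of such similar copies may be hard to assign to 1 gene.

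Of the 6 S100 genes tested, 2 lay above and 2 below the other libraries in delE6/+, with a median of -0.29. S100a13 stood at 1.82 (SE 0.16), while S100a10, the partner of annexin A2, had 33.2 and 34.1 CPM in delE6/+ and 42.1 to 67.9 CPM in the other 6 libraries (-0.59, SE 0.083). S100a11 was at -0.37 (SE 0.058) and S100a6 at -0.48 (SE 0.12). The members of this family lay on both sides of 0.

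**Figure D4:**
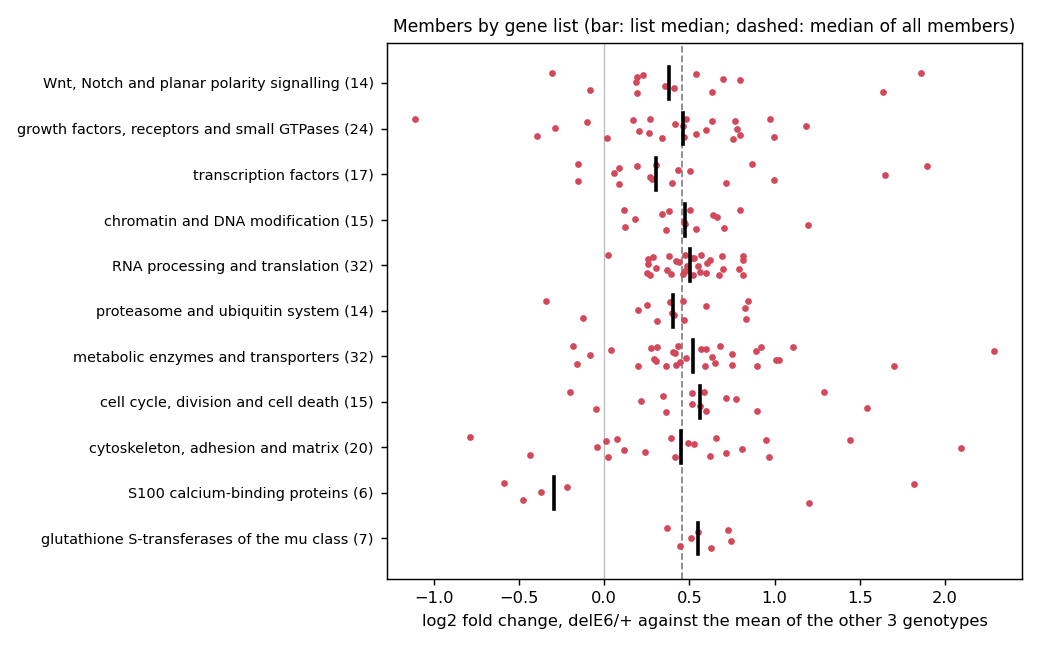
Each point is a member of 1 of the 11 gene lists, placed by its log2 fold change in delE6/+ against the mean of the other 3 genotypes, with the number tested in brackets, a black bar at the list's median and a dashed line at the median of all members. In the plot, 10 lists have medians from 0.30 to 0.56, and the 6 S100 genes have a median of -0.29.

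The 8 members with the highest values in delE6/+ (mean of at least 2 CPM) ran from 1.64 to 2.10. Frem2, a basement membrane protein, had 186 and 185 CPM in WT, 148 and 134 CPM in delE6/delE6, 134 and 128 CPM in insASAY, and 624 and 666 CPM in delE6/+ (2.10, SE 0.040). Bche, which encodes butyrylcholinesterase, had 5.06 to 6.58 CPM in the other 6 libraries and 21.2 CPM in each delE6/+ library (1.89, SE 0.080). Both genes showed libraries of 1 genotype far above the others and close to each other.

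The germ cell transcription factor gene Sohlh2 had 61.5 and 60.5 CPM in WT, 48.1 and 24.2 CPM in delE6/delE6, 36.6 and 36.5 CPM in insASAY, and 133 and 137 CPM in delE6/+ (1.65, SE 0.14). S100a13 (1.82), the scaffold gene Pdzk1 (1.75, SE 0.13), Slc39a8 (1.70), the sodium and proton exchanger gene Slc9b1 (1.66, SE 0.16) and Maml3 (1.64) completed the group. In each of the 8, both delE6/+ libraries lay above the other 6, beside 19.7% of all tested genes. The 8 were chosen by their size in this contrast, so that separation is no test.

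The 8 members with the lowest values ran from -1.79 to -0.64. Bnipl, a relative of the Bcl2-interacting proteins, had 1.44 and 1.30 CPM in WT, 2.35 and 3.04 CPM in delE6/delE6, 4.01 and 3.99 CPM in insASAY, and 0.757 and 0.653 CPM in delE6/+ (-1.79, SE 0.22). Pdgfc, a ligand of the platelet-derived growth factor receptors whose promoter is printed above, had 1.67 and 1.06 CPM in delE6/+, against 1.79 to 4.73 CPM in the other 6 libraries (-1.23, SE 0.23). In both genes the WT libraries lay nearest to delE6/+.

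Csf1, the macrophage colony-stimulating factor, had 16.2 and 17.3 CPM in WT, 23.7 and 24.8 CPM in delE6/delE6, 6.48 and 9.76 CPM in insASAY, and 6.55 and 7.27 CPM in delE6/+ (-1.11, SE 0.13). Here delE6/+ overlapped insASAY. Nes, the intermediate filament of neural progenitors, had 68.2 and 68.1 CPM in delE6/+ and 89.6 to 185 CPM elsewhere (-0.79, SE 0.094). The noncoding RNA Platr10, which pluripotent cells express, had 12.1 and 12.6 CPM in delE6/+ and 13.5 to 25.8 CPM elsewhere (-0.68, SE 0.096). Tmem79 (-0.89, SE 0.14), Mllt11 (-0.64, SE 0.087) and Gm37305 (-0.76, SE 0.21) were the others. The value of Gm37305 was 0.05 when reads of both strands were counted.

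**Figure D5:**
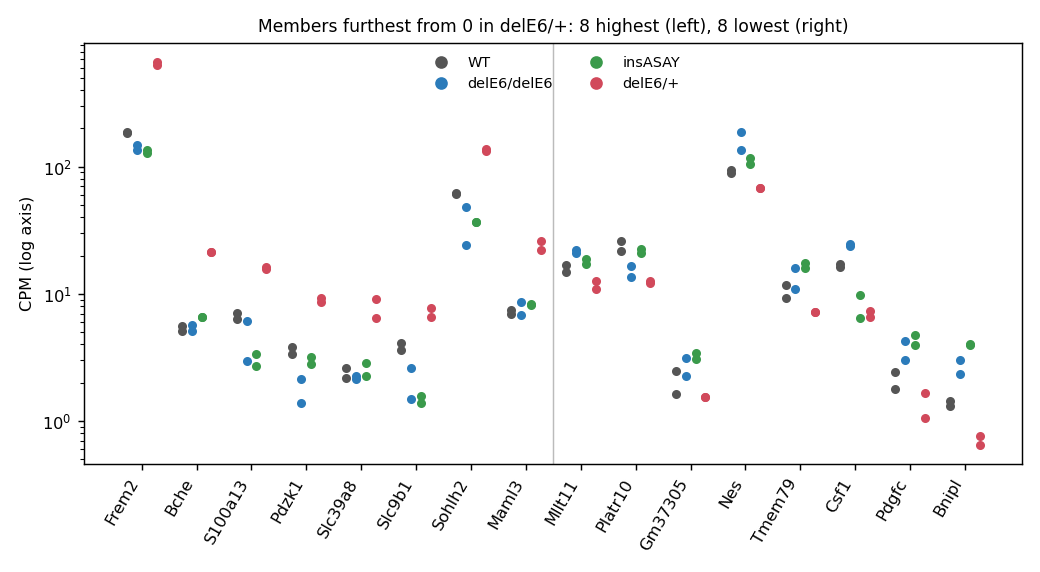
CPM on a log axis of the 8 members with the highest and the 8 with the lowest log2 fold change in delE6/+, with 1 point per library and a colour per genotype. The delE6/+ points lie above all others in the 8 genes at the left, and below all others in 7 of the 8 at the right. The exception is Csf1, where insASAY overlaps. The genes were chosen by these values, so the separation is no test.

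In promoters, coding members with fewer than 5 CG dinucleotides in the 250 bases had a median of 0.44 in delE6/+ (53 genes, quartiles -0.0019 and 0.73), and those with 20 or more had 0.51 (112 genes, quartiles 0.31 and 0.76). The classes between had medians from 0.49 to 0.53. Median levels were higher alongside, from 4.76 CPM in the poorest class to 41.0 CPM in the richest. The 30 coding members with TATAAA had a median of 0.32 and the 358 without it 0.51, and with and without CCAAT the medians were 0.51 and 0.48.

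The comparisons that did not enter the rule showed changes in both directions, with medians near 0 over the members. These 3 comparisons share libraries, so their values are given side by side. In delE6/delE6 against WT, 36 members rose and 36 fell (6.12% each way), against 6.12% higher and 6.59% lower over all tested genes, with a median of -0.0045 over the members. In insASAY against WT, 61 rose (10.4%) and 62 fell (10.5%), against 11.5% and 9.85% of all tested genes. In insASAY against delE6/delE6, 12 rose and 16 fell (2.04% and 2.72%), beside 2.79% and 2.38%. Each share was near that of all genes. Without replicate 1 of delE6/delE6 the first count of 72 became 112, and without replicate 2 it became 45. Without replicate 1 of insASAY the last count of 28 became 10.

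Adjusted p-values here are from the quasi-likelihood test of edgeR with Benjamini-Hochberg adjustment over all tested genes. Among members with a mean of at least 2 CPM, Inka2, an inhibitor of PAK kinases, rose most in both delE6/delE6 and insASAY. Its CPM were 1.37 and 1.26 in WT, 3.24 and 4.47 in delE6/delE6, and 5.10 and 4.42 in insASAY. The groups did not overlap with WT, at log2 fold changes of 1.55 in delE6/delE6 (edgeR adjusted p = 0.00026) and 1.85 in insASAY (edgeR adjusted p = 2.1e-05).

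Lrif1, whose product binds nuclear receptors and heterochromatin proteins, had 5.05 and 5.36 CPM in WT, 9.79 and 12.2 CPM in delE6/delE6, and 15.3 and 13.1 CPM in insASAY. It rose by 1.09 (edgeR adjusted p = 0.00018) and 1.45 (edgeR adjusted p = 6.7e-06). Vangl1, a planar cell polarity protein, rose from 22.2 and 21.6 CPM in WT to 35.04 and 44.97 CPM in delE6/delE6 (0.87, edgeR adjusted p = 0.00013). Bnipl rose by 0.98 in delE6/delE6 and 1.54 in insASAY, and Gnat2, a transducin subunit of cone photoreceptors that had 1.70 and 1.52 CPM in WT, by 0.87 in delE6/delE6 (edgeR adjusted p = 0.0042).

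In insASAY the arginine methyltransferase gene Prmt6 rose from 12.2 and 12.0 CPM in WT to 26.2 and 25.7 CPM (1.10, edgeR adjusted p = 2.7e-05). Tchh, a protein of hair follicles, rose by 1.08 (edgeR adjusted p = 0.00010). In delE6/+ against the mean of the other genotypes these genes lay on both sides of 0, with Bnipl at -1.79, Tchh at -0.27, Inka2 at -0.11, Vangl1 at -0.08, Lrif1 at 0.11, Prmt6 at 0.12 and Gnat2 at 0.53.

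Genes that fell in delE6/delE6 included Col11a1, a fibrillar collagen, from 9.02 and 9.60 CPM in WT to 4.09 and 3.85 CPM (-1.23, edgeR adjusted p = 7.8e-05). Txnip fell by 1.21 on the log2 scale (edgeR adjusted p = 0.00013), the glycine receptor subunit gene Glrb by 1.12 (edgeR adjusted p = 0.00099), Pdzk1 by 1.04 (edgeR adjusted p = 0.0022) and the ephrin gene Efna1 by 0.93 (edgeR adjusted p = 0.0028). In delE6/+, each of these 5 was higher than the mean of the other genotypes, by 0.79 (Efna1) to 1.75 (Pdzk1), a mean that includes the lower delE6/delE6 libraries.

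At the same minimum level, the largest fall in insASAY was that of F3, which encodes tissue factor, the starter of blood coagulation. Its CPM were 49.4 and 49.7 in WT, 40.02 and 28.1 in delE6/delE6, 12.7 and 15.2 in insASAY, and 45.5 and 44.6 in delE6/+. The insASAY libraries lay below all others, at -1.83 against WT (edgeR adjusted p = 1.8e-06) and -1.28 against delE6/delE6 (edgeR adjusted p = 5.9e-05). Tuft1, which encodes tuftelin of tooth enamel, had 31.4 and 34.2 CPM in WT, 22.4 and 17.9 CPM in delE6/delE6, and 11.2 and 11.7 CPM in insASAY. It fell by 1.51 against WT and 0.81 against delE6/delE6.

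Slc9b1 fell by 1.38 in insASAY against WT (edgeR adjusted p = 0.00050), the phosphatase gene Ppm1j by 1.18 (edgeR adjusted p = 3.4e-05) and Bcan, the proteoglycan brevican, by 1.14 (edgeR adjusted p = 0.0015). Against delE6/delE6, Csf1 fell most at this level, by 1.58 (edgeR adjusted p = 1.5e-05). The adhesion gene Kirrel fell by 0.66 (edgeR adjusted p = 1.1e-05) and Arhgap29, a regulator of small GTPases, by 0.61 (edgeR adjusted p = 3.1e-05).

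Rises in insASAY against delE6/delE6 were smaller and concerned genes with means of 2.42 to 6.12 CPM. Pdzk1 rose by 0.77 (edgeR adjusted p = 0.028), the nicotinic receptor subunit gene Chrnb2 by 0.76 (edgeR adjusted p = 0.029), 1110032F04Rik by 0.66 (edgeR adjusted p = 0.023), the selenium-binding protein gene Selenbp1 by 0.61 (edgeR adjusted p = 0.011) and Hfe2, the iron regulator hemojuvelin, by 0.59 (edgeR adjusted p = 0.039). Each of these 5 lost its call without a replicate of insASAY.

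By gene list, the calls of delE6/delE6 against WT stand beside 6.12% of all tested genes higher and 6.59% lower, and those of insASAY against WT beside 11.5% and 9.85%. With so few genes in a list, these counts are a description. In the cytoskeleton, adhesion and matrix list, 2 of 20 rose and 2 fell in delE6/delE6, and 1 rose and 6 fell in insASAY. Of the growth factor list, 2 of 24 rose and 2 fell in delE6/delE6, and 2 rose and 5 fell in insASAY. These were the lists with the most falls in insASAY.

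Of the 15 genes of the cell cycle, division and cell death, 2 rose and 3 fell in each of these comparisons. Of the 14 genes of Wnt, Notch and planar polarity signalling, 1 rose and 1 fell in delE6/delE6, and 3 rose and 2 fell in insASAY. Of the 17 transcription factor genes, 1 rose and 1 fell in delE6/delE6, and 2 rose and 2 fell in insASAY, while 2 of 15 chromatin genes rose and 1 fell in each. Of the RNA processing and translation genes, 1 of 32 rose in delE6/delE6 and 3 rose in insASAY. Among metabolic genes, 2 of 32 rose and 3 fell in insASAY, and 1 of 14 genes of the proteasome and ubiquitin system fell there. Of the 6 S100 genes, 1 rose in delE6/delE6 and 1 fell in insASAY. The 7 glutathione S-transferase genes had log2 fold changes from -0.57 (Gstm3) to 0.08 (Gstm5) in delE6/delE6 and from -0.50 (Gstm3) to 0.42 (Gstm7) in insASAY. List medians in these 2 comparisons lay between -0.22 and 0.15, beside -0.0045 and -0.0044 over all members.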

How the data were processed

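RNA of 8 poly(A) libraries, made with a directional kit, was sequenced on 1 NovaSeq lane. Per the labels, the authors mapped reads to mm10 with STAR 2.7.2a, and they deposited whole-number counts of reads per gene without normalization. The deposited column for the opposite strand was used, and summary lines, present in 7 files, were left out of library sizes (26.2 to 29.0% of reads in these files were not counted on a gene). Depth was 24618587 to 28445952 reads, and genes with few reads are imprecise. Of 48440 identifiers, 48058 were matched to GENCODE M21.

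Counts were analysed with edgeR 4.0.16 in R 4.3.3 (TMM, filterByExpr, a quasi-likelihood test in which the 4 genotypes share 1 fit, Benjamini-Hochberg adjustment over 17049 genes). Calls needed a log2 fold change beyond 0.5 in size and an adjusted p below 0.05. Library sizes were scaled by TMM for CPM, and 2 reads were added as prior count for log2 CPM. Simulated counts were used to test the fit. Promoters are from RefSeq (GRCm38.p6), with the first start site listed per gene. The rule, members and lists were chosen with earlier results of these data known. Named were the 3 most abundant members of each list (some are not reported here), the 3 genes on each side of both ends, the 8 highest and 8 lowest in delE6/+, and up to 5 rises and 5 falls per tested comparison whose libraries did not overlap, with a mean of at least 2 CPM for those chosen by size. Alternatives were DESeq2 1.42.0, its size factors, scaling without chromosome 3, other filters, unstranded counts, fits of fewer groups, a replicate block and leaving out each library. Protein-coding members alone were added as an alternative after seeing the data. Figures were drawn with matplotlib 3.10.9.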

Additional observations from a re-analysis of the deposited data

How the results depend on the processing

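Of the 81 counts of called members under alternatives, 77 stayed within 1.5 times the reported count, and of the 86 medians, 79 moved by less than 0.0108 on the log2 scale, the SD between replicate libraries. In a fit of only the groups compared, insASAY against delE6/delE6 gave 18 called members in place of 28. With 1 library left out at a time, counts ran from 221 to 251 in delE6/+ against WT, 239 to 269 in delE6/+ against the mean of the other 3 genotypes, 45 to 112 in delE6/delE6 against WT, 95 to 127 in insASAY against WT, and 10 to 38 in insASAY against delE6/delE6. The lone library of a genotype was then assumed to vary like the others. Medians ran from 0.4563 to 0.4703, from 0.4512 to 0.4601, from -0.0078 to 0.0075, from -0.0178 to 0.011 and from -0.0219 to -0.0088 in the same order. Over members with a mean of at least 2 CPM, the medians were 0.4678 in delE6/+ against the mean of the others, 0.0164 in delE6/delE6 against WT and -0.0344 in insASAY against delE6/delE6. Over protein-coding members, an alternative chosen after seeing the data, the medians in delE6/+ were 0.4988 against WT and 0.4894 against the mean of the others. The cause of these movements was not tested, beyond the change in the genes or libraries used.

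Replicate numbers did not pair the samples: correlations of same-numbered deviations ran from -0.00971 to 0.0494. With the replicate number as a block, 72 members were called in delE6/delE6 against WT and 124 in insASAY against WT. In insASAY against delE6/delE6 the count was 26. Hfe2 alone among the genes named by size lost its call under the block.

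Of 720 values of genes named by size, 1 turned sign (Gm37305 in delE6/+, 0.0489 with unstranded counts) and 27 lost a call, each of these in insASAY against delE6/delE6. The depth limits low genes: coding members below 2 CPM had quartiles 1.32 apart.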
